A study of Mus musculus with 6 samples.

Results

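Innate nucleic acid sensing genes were examined in tibialis anterior (TA) muscle of iMSBmal1 knockout mice injected with adeno-associated virus (AAV). The 10 genes, Tlr2, Tlr3, Tlr7, Tlr9, Myd88, Ddx58, Ifih1, Dhx58, Tmem173 and Aim2, were chosen by name as receptors and adaptors that can respond to a viral vector. All 10 were found among the 55401 gene identifiers of the count table, and all 10 passed the filter on low counts, which left 17222 genes tested. Total RNA depleted of ribosomal RNA was sequenced from 3 muscles given AAV-GFP and 3 given AAV-RBM20. All 6 samples came from C57BL/6 mice of genotype HSA-MCM-Bmal1-/-. The study used male mice, which were 12 to 16 weeks old when recombination was induced. Tamoxifen at 2 mg per day for 5 days induced the Bmal1 deletion, the vector was injected throughout the TA 4 weeks later, and the muscle was frozen after another 4 weeks. Cre in this line is driven by the human skeletal actin promoter, so that the deletion is restricted to skeletal muscle fibers and other cells of the muscle keep Bmal1. Both groups carry this deletion and both received a vector, and no uninjected muscle was analyzed here. The RBM20 vector carried mouse Rbm20 cDNA under a cytomegalovirus promoter. Its dose exceeded that of the GFP vector, and the effects of dose and transgene cannot be told apart here.

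Cells recognize foreign nucleic acid through receptors in separate compartments. Toll-like receptors in endosomes read RNA or unmethylated DNA and signal mainly through the adaptor MyD88, while the helicases RIG-I and MDA5 read double-stranded RNA in the cytosol through the mitochondrial adaptor MAVS, and STING and AIM2 act downstream of, or bind directly, cytosolic DNA. These routes lead to type I interferon, to NF-kappaB target genes or to the inflammasome, and many of the receptors are themselves interferon-inducible. In skeletal muscle TLR7 and TLR9 are known mostly from resident and infiltrating immune cells, whereas the cytosolic sensors are expressed more broadly, and AAV, a single-stranded DNA vector, is known to be read by TLR9 and MyD88.

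The regions around the start sites of some of these genes hold short spellings that are known to be bound by transcription factors. Interferon regulatory factors and NF-kappaB are factors through which the sensors signal, and PU.1 is not one of these. The spellings of the former are shown because the genes are both sources and targets of interferon and NF-kappaB signaling. RefSeq windows of build GRCm38.p6, running from 250 bases before to 50 after a start site, matched 7 of the 10 genes (not Tlr7, Dhx58 or Tmem173). Both strands of each were searched for interferon regulatory factor (IRF) elements, spelled as GAAA and GAAA with 2 bases or 1 base of any kind between them, for the NF-kappaB element, spelled GGGA and CC with 4 bases of any kind between them, and for the PU.1 element GAGGAAGT. PU.1 is a factor of myeloid and B cells. The sequences below run 5′ to 3′ on the strand of the gene, with the matches in capitals and positions counted from the start site as base 1.
Ddx58: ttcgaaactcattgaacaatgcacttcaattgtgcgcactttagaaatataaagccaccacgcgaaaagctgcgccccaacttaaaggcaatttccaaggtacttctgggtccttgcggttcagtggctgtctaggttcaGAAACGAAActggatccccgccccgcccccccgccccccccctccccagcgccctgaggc
Myd88: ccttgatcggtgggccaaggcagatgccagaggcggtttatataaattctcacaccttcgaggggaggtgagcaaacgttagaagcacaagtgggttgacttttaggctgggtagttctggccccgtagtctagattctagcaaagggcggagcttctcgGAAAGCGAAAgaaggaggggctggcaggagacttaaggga
Ifih1: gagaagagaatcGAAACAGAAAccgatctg
Tlr2: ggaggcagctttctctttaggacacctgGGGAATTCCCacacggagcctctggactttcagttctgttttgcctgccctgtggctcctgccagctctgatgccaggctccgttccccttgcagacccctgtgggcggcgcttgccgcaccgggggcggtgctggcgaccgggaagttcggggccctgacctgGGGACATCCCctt
Aim2: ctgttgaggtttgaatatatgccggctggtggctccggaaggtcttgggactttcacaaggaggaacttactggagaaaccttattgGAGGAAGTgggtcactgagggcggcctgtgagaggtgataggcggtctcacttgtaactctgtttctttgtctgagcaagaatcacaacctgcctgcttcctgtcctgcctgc
Tlr9: gtgaaagtgtcACTTCCTCaattctctgag

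The Ddx58 stretch (chr4:40239826-40240025, minus strand) covers the 200 bases before the start and holds GAAACGAAA at -60. In Ddx58 a second IRF element, on the opposite strand and reading TTTCGATTTC on the gene's strand, begins at base 3, just past the printed stretch. The Myd88 stretch (chr9:119340019-119340218, minus strand) holds GAAAGCGAAA at -40, and the 30 bases of Ifih1 (chr2:62646206-62646235, minus strand) hold GAAACAGAAA at base 33. The IRF spelling with 2 bases between was in 3 of the 7 windows and in 3.44% of the 32851 RefSeq windows of the same length, and the one with 1 base was in 1 of 7 and in 3.17%. The Tlr2 stretch (chr3:83841604-83841808, minus strand) holds the NF-kappaB spelling at -172 and at -8, each matching on either strand. That element was in 2 of 7 windows, those of Tlr2 and Tlr3, against 20.7% of all windows. The PU.1 spelling was in 2 of 7 and in 3.20% of all windows. It lies at -113 in Aim2 (chr1:173420404-173420603, plus strand) and, on the opposite strand, at base 11 in Tlr9 (chr9:106222597-106222626, plus strand), where it reads ACTTCCTC. The RefSeq start sites used for Myd88, Aim2 and Tlr2 lie inside the gene spans given below and not at their outer ends. A match describes letters in these windows and not a bound site.

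The libraries held 41400132 to 54226618 counts each, and the 10 genes took between 9 counts, for Tlr9 in AAV-GFP replicate 1, and 789 counts, for Ifih1 in AAV-RBM20 replicate 3. Both libraries numbered 3 stood apart from the others of their group, with 4.48% and 9.05% of counts on Ttn against 16.9% to 17.8% in the other 4. Mitochondrially encoded genes took 12.5% of counts in AAV-GFP replicate 3 and 11.4% in AAV-RBM20 replicate 3, against 6.41% to 7.66% in the others. Rbm20, the gene carried by the vector, was at 164 to 170 CPM (the count scaled by TMM to the size of its library) in AAV-GFP and 406 to 545 CPM in AAV-RBM20. It differed by 1.54 ± 0.15 (SE) on the log2 scale (edgeR adjusted p = 0.121, or 0.0107 with the replicate number as a block). With no filter on low counts the edgeR adjusted p was 0.0020. The adjusted p of DESeq2 was 3.8e-15, while limma-voom did not call Rbm20. Muscle fiber markers such as Acta1 and Ckm summed to between 55690 and 95480 CPM, so the tissue matched its label. Nothing in the labels says that the 3 samples of a group came from separate animals, so p-values measure only the spread between these samples. In the study's protein blots some animals gave muscles for both vectors, on opposite sides. The labels do not say whether this holds for the samples here.

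To ask whether the sensing genes differed between AAV-RBM20 and AAV-GFP, the groups were compared across all genes. Every one of the 10 genes had a positive log2 fold change, but 0 passed the threshold, an adjusted p of 0.05 by edgeR's quasi-likelihood test, and their adjusted values lay between 0.618 and 0.949. The background was the same, as 0 of 17222 genes passed (0%). Rbm20, which the vector carries, was not called in this fit either, so a gene not called here may still differ. DESeq2 and limma-voom also called 0 of the 10 after adjustment. At an unadjusted p below 0.05, 1 of the 10 was higher in AAV-RBM20, Tmem173, against 4.08% of all genes higher and 7.90% in either direction. Over all genes such calls split into 702 higher and 658 lower, and into 865 and 504 with upper quartile factors. Group ranges did not overlap for 2 of the 10, Dhx58 and Tmem173, both higher in AAV-RBM20, and 0 were lower. Over all genes these shares were 7.71% higher and 9.04% lower.

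The median log2 fold change of the 10 genes was 0.50, against 0.009 for all genes tested. A positive value was also found in 51.3% of all genes, and 11.8% of all genes had a log2 fold change at or above the median of the 10. With the replicate number as a block, 0 of the 10 passed an adjusted p of 0.05 (0.145% of all genes did), with adjusted values of 0.142 to 0.912. Under that block 5 of the 10, Tlr3, Tlr7, Tlr9, Tmem173 and Aim2, had an unadjusted p below 0.05 and were higher in AAV-RBM20, where the background was 8.92%. In 8 of the 10 genes the AAV-RBM20 library was higher in 3 of 3 same-numbered pairs, as it was in 22.2% of all genes. Tlr2 and Myd88 were higher in 2 of 3 pairs. Whether same-numbered libraries are true pairs could not be settled from the correlations between libraries given below. Over all alternatives tried, adjusted values of the 10 genes ran from 0.0804 to 0.9985.

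**Figure D1:**
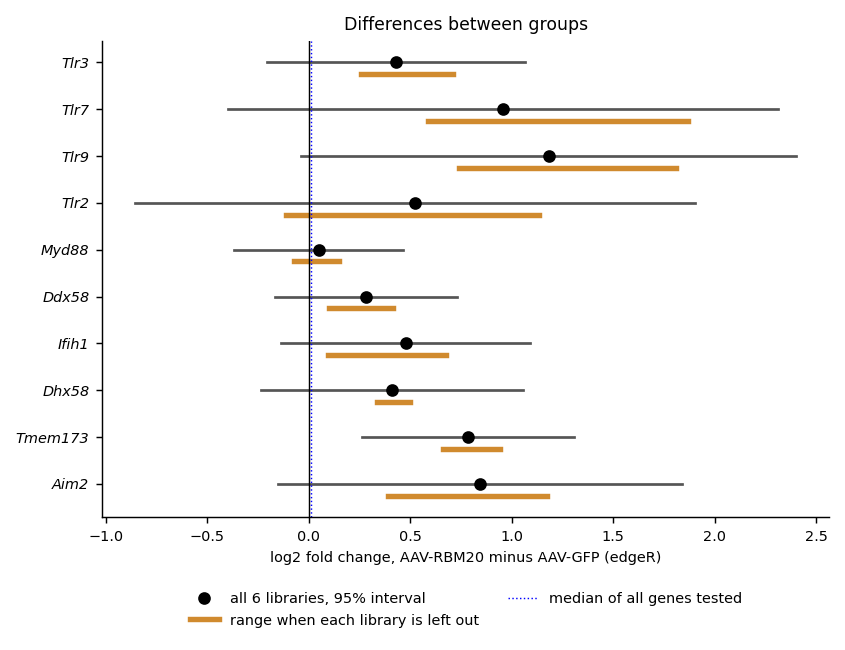
Log2 fold change of each gene, AAV-RBM20 minus AAV-GFP, from the edgeR fit to all 6 libraries (points, with 95% intervals as lines); orange bars give the range of the value when each library is left out in turn, and the dotted line is the median of all genes tested (0.009). All 10 points lie above 0, and the interval excludes 0 for Tmem173 alone, while the orange bars of Tlr2 and Myd88 cross 0.

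Among the endosomal receptors, Tlr9 differed most in size. Tlr9 (ENSMUSG00000045322; GRCm38 chromosome 9, 106222598 to 106226883, plus strand, 2 merged exons) encodes the receptor for unmethylated CpG DNA, and its start-site element for PU.1 is printed above. It was at 0.221, 0.407 and 0.817 CPM in AAV-GFP replicates 1, 2 and 3 and at 0.807, 0.821 and 1.71 CPM in AAV-RBM20 replicates 1, 2 and 3. The groups overlapped through AAV-GFP replicate 3, which lay between AAV-RBM20 replicates 1 and 2. The difference on the log2 scale was 1.18 ± 0.53 (SE), and with the replicate block it was 1.26 ± 0.33 (SE). In edgeR's test the unadjusted p was 0.0559 and the adjusted p 0.641, and under the block these were 0.00576 and 0.142. These values rest on 9 to 83 counts per library, and the unblocked difference was 1.81 once AAV-GFP replicate 3 was left out and 0.74 once AAV-RBM20 replicate 3 was.

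Tlr7 (ENSMUSG00000044583; chromosome X, 167304929 to 167330558, minus strand), the receptor for single-stranded RNA, was at 0.320, 0.527 and 1.52 CPM in AAV-GFP and at 1.80, 0.821 and 2.04 CPM in AAV-RBM20. AAV-GFP replicate 3 lay above AAV-RBM20 replicate 2, and each AAV-RBM20 library was above the AAV-GFP library of the same number. On the log2 scale the groups differed by 0.96 ± 0.59 (SE; edgeR adjusted p = 0.662), and by 1.10 ± 0.42 (SE; adjusted p = 0.234) under the block. The unblocked value was 1.87 once AAV-GFP replicate 3 was left out, 0.59 once AAV-GFP replicate 1 was, and 0.48 with both libraries numbered 1 left out, an alternative added after seeing the data.

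Tlr3 (ENSMUSG00000031639; chromosome 8, 45395665 to 45411080, minus strand) encodes the endosomal receptor for double-stranded RNA, which signals through TRIF and not through MyD88. It was the most abundant of the 4 Toll-like receptors in the list per kilobase of merged exon, at 0.535 ± 0.163 CPM per kb in AAV-GFP and 0.721 ± 0.162 CPM per kb in AAV-RBM20 (SD, n = 3). Its values were 2.31, 2.28 and 3.76 CPM in AAV-GFP and 3.63, 2.99 and 4.65 CPM in AAV-RBM20. Replicates 1 and 2 of AAV-GFP were below every AAV-RBM20 library, and AAV-GFP replicate 3 was above 2 of them. A log2 fold change of 0.43 ± 0.27 (SE) was fitted (edgeR adjusted p = 0.669), with 0.71 once AAV-GFP replicate 3 was left out and 0.26 once AAV-RBM20 replicate 3 was. An antisense gene, Gm45542, shares 381 exon bases with Tlr3, and since the strand setting of the counting is not given in the sources used here, reads of the 2 genes may not be separated.

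Tlr2 (ENSMUSG00000027995; chromosome 3, 83836272 to 83841767, minus strand) differs from the rest of the list in being a cell-surface receptor, known for microbial lipoproteins and not for nucleic acid. It was at 0.344, 0.863 and 1.54 CPM in AAV-GFP and at 0.972, 0.721 and 2.29 CPM in AAV-RBM20. In both groups replicate 3 was the highest, by a factor of 2.55 over the mean of replicates 1 and 2 in AAV-GFP and of 2.70 in AAV-RBM20, which exceeds the ratio of the group means of 1.45. The log2 fold change of 0.52 ± 0.60 (SE; edgeR adjusted p = 0.804) became -0.11 once AAV-RBM20 replicate 3 was left out, 0.14 once AAV-GFP replicate 1 was and 1.13 once AAV-GFP replicate 3 was.

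Myd88 (ENSMUSG00000032508; chromosome 9, 119335934 to 119341411, minus strand), the adaptor used by TLR2, TLR7 and TLR9, had the smallest difference of the 10 genes. It was at 4.11, 4.34 and 4.60 CPM in AAV-GFP and at 4.40, 3.81 and 5.27 CPM in AAV-RBM20, so the AAV-RBM20 range contained that of AAV-GFP. Its log2 fold change of 0.05 ± 0.18 (SE) had a 95% interval of -0.37 to 0.47 (edgeR adjusted p = 0.949). Per kilobase it was the most abundant gene of the list in both groups, at 1.69 ± 0.0951 CPM per kb in AAV-GFP and 1.74 ± 0.286 CPM per kb in AAV-RBM20 (SD, n = 3). Acaa1a shares 290 exon bases with Myd88 on the opposite strand.

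**Figure D2:**
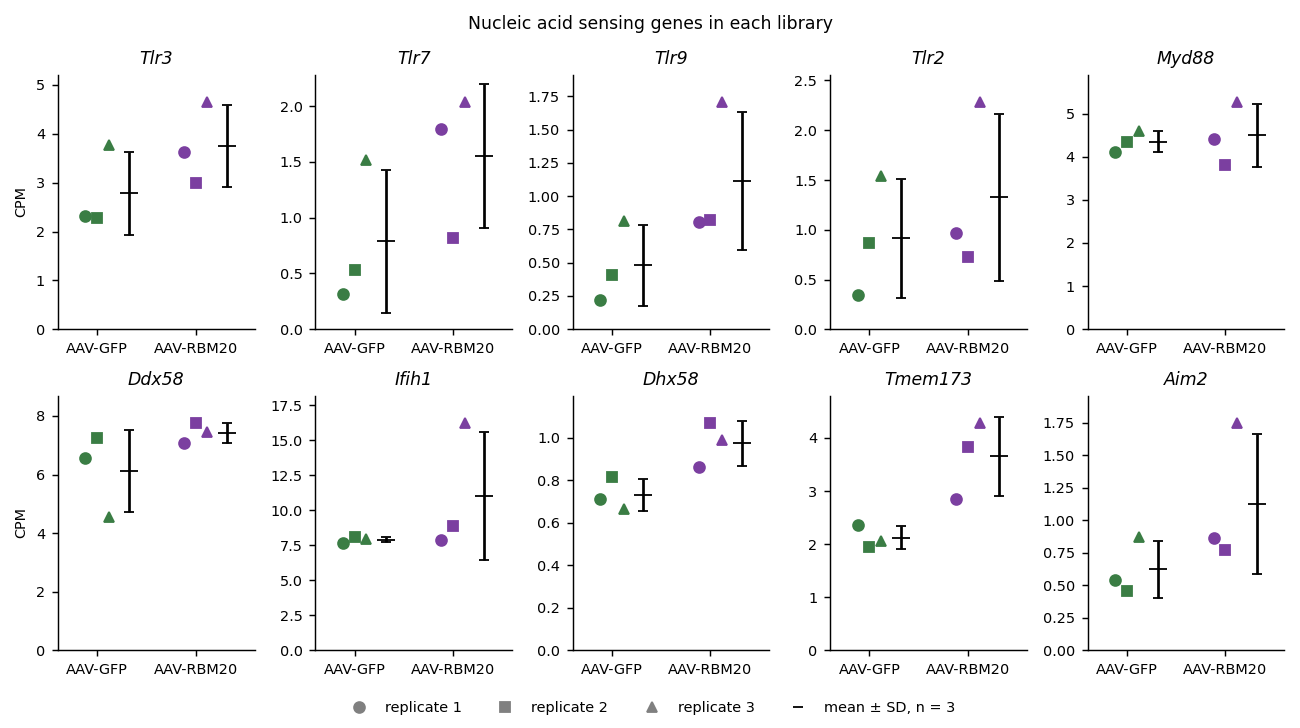
Level of each gene in CPM (vertical axes, starting at 0) in the 3 AAV-GFP and 3 AAV-RBM20 libraries, with the symbol giving the replicate number and the bar the mean ± SD. Tmem173 and Dhx58 have groups that do not overlap, and AAV-RBM20 replicate 3 (triangle) is the highest library for 8 of the 10 genes.

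Ifih1 and Ddx58 are the cytosolic receptors for long and for short, 5′-phosphorylated double-stranded RNA, named MDA5 and RIG-I. Ifih1 (ENSMUSG00000026896; chromosome 2, 62595798 to 62646255, minus strand, 17 merged exons) was at 7.70, 8.07 and 7.96 CPM in AAV-GFP and at 7.88, 8.91 and 16.2 CPM in AAV-RBM20. AAV-RBM20 replicate 1 lay within the AAV-GFP range and replicate 2 just above it, and replicate 3 stood alone at a level 1.94 times the mean of the other two. Ifih1 had a log2 fold change of 0.48 ± 0.27 (SE; edgeR adjusted p = 0.658), which was 0.09 once that library was left out.

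Ddx58 (ENSMUSG00000040296; chromosome 4, 40203773 to 40239828, minus strand, 18 merged exons) was at 6.57, 7.26 and 4.56 CPM in AAV-GFP and at 7.08, 7.76 and 7.45 CPM in AAV-RBM20. Here it was AAV-GFP replicate 3 that lay apart, below the other 5 libraries, the reverse of its place for Tlr2, Tlr3, Tlr7, Tlr9 and Aim2. The groups differed by 0.28 ± 0.19 (SE; edgeR adjusted p = 0.693) on the log2 scale, and by 0.10 once AAV-GFP replicate 3 was left out.

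Dhx58 (ENSMUSG00000017830; chromosome 11, 100694884 to 100704271, minus strand), which encodes LGP2, a helicase of the same family that lacks the signaling domain and modulates MDA5 and RIG-I, was at 0.713, 0.815 and 0.665 CPM in AAV-GFP and at 0.862, 1.07 and 0.988 CPM in AAV-RBM20. The lowest AAV-RBM20 library lay above the highest AAV-GFP library. With only 29 to 48 counts per library, the difference of 0.41 ± 0.28 (SE) on the log2 scale had a 95% interval that included 0 (edgeR adjusted p = 0.689). An antisense gene, Dhx58os, shares 141 exon bases with it.

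On the cytosolic DNA route, Tmem173 was the gene with the unadjusted p below 0.05. Tmem173 (ENSMUSG00000024349; chromosome 18, 35733679 to 35740554, minus strand, 7 merged exons) encodes STING, the adaptor on the endoplasmic reticulum that responds to the cyclic dinucleotide made by cGAS. It was at 2.36, 1.94 and 2.05 CPM in AAV-GFP and at 2.84, 3.83 and 4.28 CPM in AAV-RBM20, from 81 to 108 and from 154 to 208 counts. The groups did not overlap, and AAV-GFP replicate 3 lay between replicates 1 and 2. The AAV-RBM20 mean was 1.72-fold that of AAV-GFP, and the difference on the log2 scale was 0.78 ± 0.23 (SE), with a 95% interval of 0.26 to 1.31. In edgeR's test the unadjusted p was 0.00854 and the adjusted p 0.618, and with the replicate block they were 0.00915 and 0.157. By an exact permutation test (two-sided, on log2 CPM) p was 0.1, as low as 3 against 3 samples can go. When each library was left out, the log2 fold change stayed between 0.66 and 0.94.

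Aim2 (ENSMUSG00000037860; chromosome 1, 173350879 to 173466040, plus strand), which binds double-stranded DNA in the cytosol and assembles an inflammasome, was at 0.541, 0.455 and 0.874 CPM in AAV-GFP and at 0.862, 0.771 and 1.75 CPM in AAV-RBM20. AAV-GFP replicate 3 lay just above AAV-RBM20 replicates 1 and 2. Aim2 differed by 0.84 ± 0.43 (SE; edgeR adjusted p = 0.654) on the log2 scale, and by 0.82 ± 0.29 (SE; adjusted p = 0.210) under the block. The unblocked value was 0.39 once AAV-RBM20 replicate 3 was left out. The annotated span of Aim2 overlaps Cadm3 on the opposite strand, with no exon base shared.

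Ordered by level per kilobase of merged exon, the genes kept Myd88 and Ifih1 on top in both groups. In AAV-GFP they were followed by Ddx58, Tmem173, Tlr3, Tlr2, Dhx58, Tlr7, Aim2 and Tlr9, from 0.869 CPM per kb for Ddx58 down to 0.139 CPM per kb for Tlr9. Only the step from Myd88 to Ifih1 had ranges that did not overlap. An overlap of ranges does not show equal levels, because neighbors were not compared within each library. In AAV-RBM20 Tmem173 came next after these at 1.33 ± 0.269 CPM per kb and Dhx58 last at 0.297 ± 0.0321 CPM per kb (SD, n = 3), and only Ddx58 and Tlr3 were neighbors without overlap. In AAV-GFP the level of Tmem173 was 0.773 ± 0.0796 CPM per kb (SD, n = 3).

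In both groups replicate 3 was often the library with the highest levels. AAV-RBM20 replicate 3 was the highest library for 8 of the 10 genes and AAV-RBM20 replicate 2 for Ddx58 and Dhx58. In AAV-GFP replicate 3 was above the mean of replicates 1 and 2 for 7 of 10 genes, with ratios from 0.659 for Ddx58 to 3.59 for Tlr7, and in AAV-RBM20 for 10 of 10, from 1.01 for Ddx58 to 2.70 for Tlr2. Summed over the 10 genes the level was 25.2, 26.9 and 28.4 CPM in AAV-GFP and 31.1, 31.5 and 46.7 CPM in AAV-RBM20. Across the 6 libraries, which share depth and composition within each, Pearson's r of a gene with the mean of all 10, itself included, ran from 0.28 for Ddx58 to 0.95 for Tlr9.

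Markers of other cell types varied between the libraries as well. The 10 macrophage markers, among them Adgre1, Csf1r and Itgam, summed to 31.2, 29.8 and 102 CPM in AAV-GFP and 73.3, 65.9 and 145 CPM in AAV-RBM20. All 10 had counts in every library and positive log2 fold changes, with a median of 0.80. By edgeR 0 of them passed after adjustment, 1 had an unadjusted p below 0.05, and 9 did under the replicate block, where 8.92% of all genes were higher at that p. Once both libraries numbered 3 were left out, 7 of the 10 passed after adjustment, as did 690 of all 17250 genes then tested. In DESeq2 under the block, an alternative added after seeing the data, 4 passed, as did 505 of 29747 genes. In both of these 0 of the 10 sensing genes passed. AAV-GFP replicate 3, with a macrophage marker sum above those of AAV-RBM20 replicates 1 and 2, was also the AAV-GFP library with the highest Tlr2, Tlr3, Tlr7, Tlr9, Aim2 and Myd88. Tmem173, Ddx58, Ifih1 and Dhx58 did not have their highest AAV-GFP level there. In bulk muscle, fewer cells of a type and less RNA per cell cannot be told apart, and the part of macrophage content in these differences was not tested.

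The 7 T and NK cell markers summed to 0.0984 to 0.931 CPM in AAV-GFP and to 0.935, 0.697 and 4.26 CPM in AAV-RBM20, the last being replicate 3, the library with the highest Ifih1. The 7 muscle fiber markers were lowest in that library, at 55690 CPM, and summed to 78100 and 83880 CPM in the other AAV-RBM20 libraries and to 86960 to 95480 CPM in AAV-GFP, without overlap. Singly, 1 of the 7 was lower in AAV-RBM20 without overlap, as were 9.04% of all genes. Of the 7, 2 had positive log2 fold changes. The 6 dendritic cell markers summed to 14.0 to 16.0 CPM in AAV-GFP and 16.5 to 22.4 CPM in AAV-RBM20, but 0 of the 6 separated the groups singly, and Zbtb46, the largest part of the sum, was at 10.8 to 14.5 CPM and at 14.3 to 15.6 CPM. The 3 plasmacytoid dendritic cell markers, of a cell known for high TLR7 and TLR9, summed to 0.713 to 0.958 CPM in AAV-GFP and 0.348 to 0.906 CPM in AAV-RBM20, and the 5 B cell markers to 0.738 to 1.73 CPM and 0.920 to 2.06 CPM. Neutrophil markers summed to at most 1.14 CPM, with Ly6g at 0 counts in all 6 libraries. The part of these cells in the result was not tested.

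**Figure D3:**
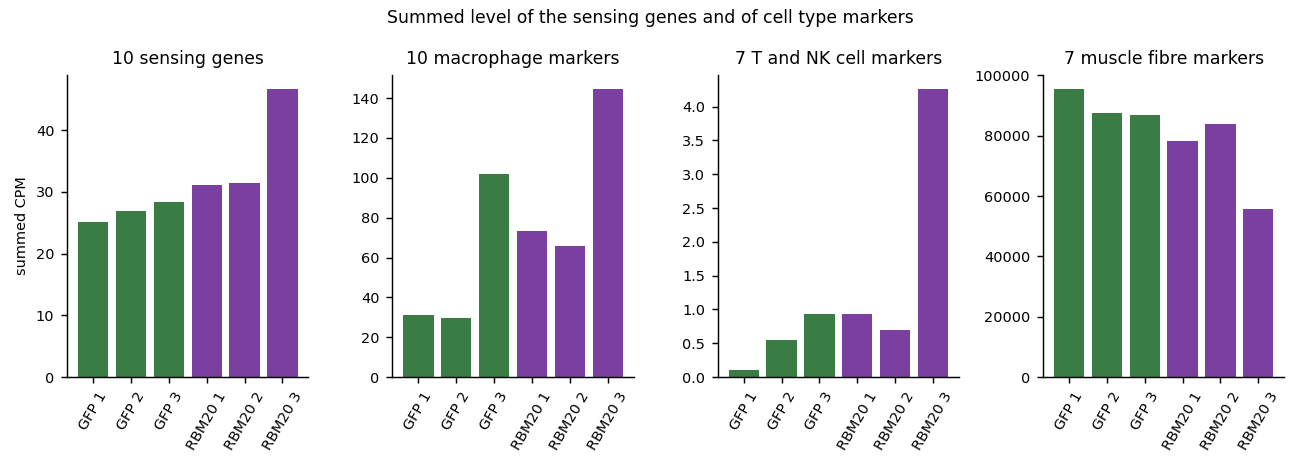
Summed CPM per library (bars from 0; green, AAV-GFP; purple, AAV-RBM20; numbers are replicates) of the 10 sensing genes and of macrophage, T and NK cell, and muscle fiber markers. Sensing genes and macrophage markers are highest in AAV-RBM20 replicate 3 (46.7 and 145 CPM), where muscle fiber markers are lowest (55690 CPM). AAV-GFP replicate 3 has a macrophage sum of 102 CPM and a sensing gene sum of 28.4 CPM. In that library 7 of the 10 sensing genes lie above the mean of AAV-GFP replicates 1 and 2.

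The partners of the 10 genes were described from lists chosen by function, and 0 of their genes passed after adjustment by edgeR in all 6 libraries (adjusted p of at least 0.618). As background for each list, 51.3% of all genes tested had positive log2 fold changes. At an unadjusted p below 0.05 by edgeR, 4.08% of all genes were higher, and 7.71% were higher without overlap of the groups. With both libraries numbered 3 left out, Unc93b1, Tlr4 and Ifi207 passed, at edgeR adjusted p-values of 0.0100, 0.0402 and 0.0443. In that setting 690 of all 17250 genes tested passed as well. Unc93b1 and Tlr4 also passed with DESeq2 under the block, an alternative added after seeing the data, at adjusted p-values of 0.0296 and 0.0225. There 505 of all 29747 genes passed. Of 19 other genes of Toll-like receptor signaling, 12 had positive log2 fold changes, with a median of 0.13, and 2 had an unadjusted p below 0.05, both higher in AAV-RBM20. These were Tlr4, the lipopolysaccharide receptor, and Unc93b1, the chaperone that carries TLR3, TLR7 and TLR9 to endosomes. Unc93b1 was at 4.55, 4.17 and 7.22 CPM in AAV-GFP and at 8.34, 7.19 and 10.3 CPM in AAV-RBM20, with AAV-GFP replicate 3 again inside the AAV-RBM20 range by a narrow margin. Its log2 fold change was 0.69 ± 0.24 (SE), and that of Tlr4, whose groups did not overlap, was 0.74 ± 0.23 (SE). In this list 2 genes were higher without overlap, Tlr4 and Tlr6, and 2 were lower without overlap, Tirap and Traf6. The 3 largest values by size were those of Tlr1 at 1.57, Tlr8 at 1.08 and Cd14 at 0.94, all with overlapping groups, and these were 2.91, 2.12 and 1.55 once AAV-GFP replicate 3 was left out.

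Of 12 other genes of cytosolic RNA sensing, 11 were tested and 10 had positive log2 fold changes, with a median of 0.32. Zc3hav1, which encodes the CpG-binding antiviral protein ZAP, and Oasl2, of the oligoadenylate synthetase family, had an unadjusted p below 0.05, with log2 fold changes of 0.30 ± 0.12 and 0.59 ± 0.25 (SE). Mavs, the adaptor of RIG-I and MDA5, had a log2 fold change of 0.06 ± 0.17 (SE) at 33.4 to 45.5 CPM in AAV-GFP and 34.1 to 47.3 CPM in AAV-RBM20. Per kilobase Mavs was at 12.0 ± 1.84 CPM per kb in AAV-GFP (SD, n = 3), where Ifih1 and Ddx58 were at 0.969 and 0.869 CPM per kb. The 3 largest values by size were those of Oas1a at 0.60, Oasl2 at 0.59 and Zcchc3 at 0.43. Oas1a and Oasl2 belong to families of close copies, so their counts are uncertain, and Oas1a was at 0.28 once AAV-GFP replicate 1 was left out.

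Of 10 other genes of cytosolic DNA sensing, 9 were tested and 9 had positive log2 fold changes, with a median of 0.53. Ifi203 and Mndal, of the AIM2-like receptor family, had an unadjusted p below 0.05 with groups that did not overlap. Ifi203 was at 10.4, 11.5 and 8.63 CPM in AAV-GFP and at 13.4, 13.7 and 20.7 CPM in AAV-RBM20, a log2 fold change of 0.65 ± 0.20 (SE), and the counts of this family of near-identical genes are uncertain. cGAS, the enzyme upstream of STING and listed as Mb21d1, had a log2 fold change of 0.18 ± 0.45 (SE) at 0.271 to 0.671 CPM in AAV-GFP and 0.367 to 0.741 CPM in AAV-RBM20. Zbp1, a sensor of Z-form nucleic acid, had the largest value at 1.62 ± 0.83 (SE), with 3.05 CPM in AAV-RBM20 replicate 3 against 0.216 to 0.798 CPM in the other 5 libraries. Pycard, the inflammasome adaptor used by AIM2, was at 0.78 ± 0.58 (SE). Once AAV-RBM20 replicate 3 was left out, Zbp1 was at 0.20, Pycard at 0.30 and Ifi203 at 0.42 on the log2 scale.

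Of the 9 shared kinases and transcription factors, 8 had positive log2 fold changes with a median of 0.09, and 1, Ikbke, had an unadjusted p below 0.05. Ikbke encodes an IRF3 and IRF7 kinase related to TBK1. It was at 1.03, 1.05 and 1.54 CPM in AAV-GFP and at 1.80, 1.79 and 3.54 CPM in AAV-RBM20, with no overlap and a log2 fold change of 0.97 ± 0.35 (SE), or 0.57 once AAV-RBM20 replicate 3 was left out. Irf3 was at 0.02 ± 0.14 (SE), Irf7 at 0.31 ± 0.28 (SE) and Ikbkb at 0.19 ± 0.19 (SE) on the log2 scale. Of 12 nucleases and negative regulators, 11 were tested and 10 had positive log2 fold changes, with a median of 0.20. Dnase2a, the lysosomal nuclease that clears DNA, was at 3.17 to 3.81 CPM in AAV-GFP and 4.36 to 5.72 CPM in AAV-RBM20, with a log2 fold change of 0.54 ± 0.18 (SE) and an unadjusted p below 0.05. Nlrc3, a negative regulator of STING, was at 0.82 ± 0.41 (SE), or 0.44 once AAV-GFP replicate 3 was left out, and Dnase1l3 at 0.75 ± 0.93 (SE). Trex1 had 0 counts in all 6 libraries, and all 1147 of its merged exon bases are shared with Atrip on the same strand.

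Of 10 genes known to be induced by these sensors, 6 were tested, and all 6 had positive log2 fold changes, with a median of 0.81. Cxcl10, an interferon-induced chemokine, was at 0.0738, 0.144 and 0.0570 CPM in AAV-GFP and at 0.312, 0.348 and 1.91 CPM in AAV-RBM20, with no overlap, from 3, 6 and 3 counts and from 17, 14 and 93 counts. It differed by 3.22 ± 0.88 (SE) on the log2 scale, a size that at such counts depends on the prior count. In edgeR's test the unadjusted p was 0.00634 and the adjusted p 0.618, while the adjusted p of DESeq2 was 0.0435, the lowest of all alternatives, whose highest was 0.9985. Cxcl9 was at 0.713 to 1.86 CPM in AAV-GFP and at 1.08, 1.34 and 16.2 CPM in AAV-RBM20, so that its log2 fold change of 2.35 ± 1.02 (SE) came with 1 library above the rest. Isg15 and Ifit1, textbook interferon-stimulated genes, were at 0.44 ± 0.59 and 0.25 ± 0.34 (SE) on the log2 scale. Ccl2 was at 1.11 ± 0.83 (SE). Once AAV-RBM20 replicate 3 was left out, Cxcl10 was at 1.85, Ccl2 at 0.28 and Cxcl9 at 0.0098 on the log2 scale. Ifnb1, the interferon gene itself, had 0 counts in all 6 libraries, and 3 counts, the limit that a count of 0 allows, correspond to 0.0550 to 0.0746 CPM, for counting error only.

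**Figure D4:**
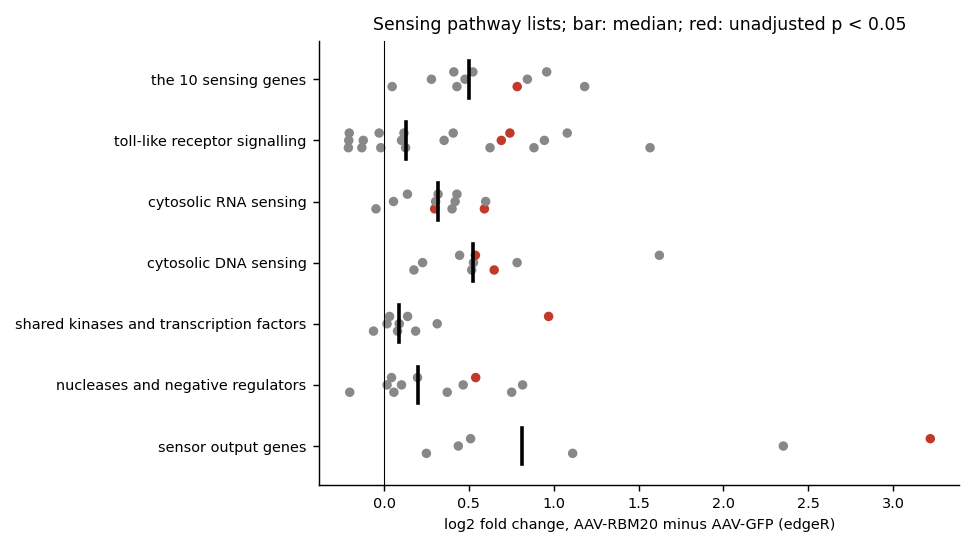
Log2 fold changes (AAV-RBM20 minus AAV-GFP, edgeR) of the 10 sensing genes and of the tested genes of 6 related lists, 1 point per gene, with the median of each list as a black bar and genes with an unadjusted p below 0.05 in red. The medians run from 0.09 for shared kinases and transcription factors to 0.81 for sensor output genes, with 0.50 for the 10 sensing genes; no gene shown passed an adjusted p of 0.05 in this fit to all 6 libraries.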

How the data were processed

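RNA-seq was analyzed from 6 TA muscles, grouped by the treatment label. Reads were mapped to mm10 with HISAT2 and counted per Ensembl gene with HTSeq, per the labels and the study's methods; versions, annotation release and strand setting are not given in the sources used here. The deposited counts are raw whole numbers. A second table, the same counts after scaling by 1 DESeq2 size factor per library, was not used. Symbols and positions came from GENCODE M21, which holds 55141 of 55401 identifiers.

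Groups were compared with edgeR 4.0.16 in R 4.3.3 (filterByExpr, TMM, robust glmQLFit, glmQLFTest, no covariate), with Benjamini-Hochberg adjustment over 17222 genes and a threshold of 0.05. The script was tested on simulated data. Each SE is the absolute log2 fold change over the root of F. Alternatives were other size factors, 2 other count filters, a replicate block, DESeq2 1.42.0, limma-voom 3.58.1, and leaving out libraries or abundant genes. Libraries of one group differed by more than sampling noise (chi-square per degree of freedom of 15.1 to 545).

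The titles number the samples of both groups 1 to 3, although other labels number AAV-RBM20 on from AAV-GFP. Deviations from the group means correlated across genes at 0.42, 0.20 and 0.48 for same-numbered libraries. All were above 0.1, the limit set for using the numbers as a block. Differently numbered libraries passed this limit too. Replicate 1 of AAV-RBM20 reached 0.22 against replicate 2 of AAV-GFP. Replicate 2 of AAV-RBM20 reached 0.13 against replicate 1 of AAV-GFP. Deviations cancel out within a group, and both libraries numbered 3 stood apart, so such correlations cannot show pairing. Values under the block therefore rest on an assumed pairing.

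All 10 genes were named, with up to 3 genes of each related list by size of log2 fold change, the check genes, and the 5 genes most correlated with the mean of the 10. Other genes with an unadjusted p below 0.05, and adaptors, enzymes or interferon genes of a route, were named from the same lists after their values were seen. The members and lists were chosen with earlier results of these data known.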

Additional observations from a re-analysis of the deposited data

How the results depend on the processing

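Under the 18 alternatives, 0 of 176 values of the 10 genes passed an adjusted p of 0.05, the lowest being 0.0804, for Tlr7 with both libraries numbered 3 left out. The median log2 fold change of the 10 moved by less than the replicate spread, from 0.34 to 0.73 when each library was left out. The replicate block changed no adjusted call among the 10 and raised the number with an unadjusted p below 0.05 from 1 to 5 (of all genes, from 4.08% to 8.92% higher), and all genes past the threshold from 0 to 25. That number of the 10 was 2 with upper quartile factors (5.02% of all genes higher), 2 with no filter (3.32%), 2 with DESeq2 (2.53%), 4 with both libraries numbered 3 left out (9.34%), 1 to 5 when each library was left out (5, with 7.10% of all genes, when this was AAV-GFP replicate 3, and 2, with 2.49%, when it was AAV-RBM20 replicate 1), and, in alternatives added after seeing the data, 0 with both libraries numbered 2 left out (2.19%) and 3 for DESeq2 under the block (3.40%). Genes past the threshold over all genes were 8 with no filter, 72 with DESeq2, 505 for DESeq2 under the block and 690 with both libraries numbered 3 left out, and 0 when any single library was left out. Of the 10, 2 to 6 had groups without overlap when each library was left out (6 when this was AAV-GFP replicate 3 and 5 when it was AAV-RBM20 replicate 1, where 16.4% and 11.0% of all genes were higher without overlap), 6 with both libraries numbered 3 left out (25.7%), and 1 at a minimum of 1 CPM in 3 libraries, which tests fewer genes. When each library was left out, the log2 fold change ran from -0.11 to 1.13 for Tlr2, -0.074 to 0.15 for Myd88, -0.0098 to 0.47 for Irf7 and -0.88 to 1.78 for Dnase1l3, in each case lowest and below 0 once AAV-RBM20 replicate 3 was dropped. It also ran from -0.063 to 0.19 for Mavs, -0.13 to 0.50 for Mb21d1, -0.069 to 0.11 for Irf3 and -0.16 to 0.46 for Ifit1. With both libraries numbered 3 left out Myd88 was at -0.031, Mb21d1 at -0.13 and Irf3 at -0.048, and Irf3 was at -0.00023 with DESeq2. The cause of these changes was not tested. Of 692 values of 40 single genes under the alternatives, 665 kept their direction and side of the threshold, 15 changed sign and 12 passed the threshold, those of Rbm20, Arntl, Tlr4, Unc93b1, Ifi207 and Cxcl10. Arntl, the symbol of Bmal1, passed only with DESeq2 under the block, an alternative added after seeing the data. It was lower in AAV-RBM20 there, at -0.43 on the log2 scale (DESeq2 adjusted p = 0.0492), while the others were higher. Depth limits Tlr2, Tlr7, Tlr9, Dhx58 and Aim2, with 9 to 111 counts in a library.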

Other observations

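The genes whose log2 CPM followed the mean of the 10 sensing genes most closely over the 6 libraries were Hps3, Pid1, Timp1, Ikbke and 2310075C17Rik, with Pearson's r of 0.994, 0.992, 0.991, 0.989 and 0.987. These were picked as the highest of all genes tested, and the libraries share depth and composition, so the values are a description. Timp1, which encodes a tissue inhibitor of metalloproteinases, was at 0.197, 0.216 and 0.418 CPM in AAV-GFP replicates 1, 2 and 3 and at 0.587, 0.522 and 1.71 CPM in AAV-RBM20 replicates 1, 2 and 3. The groups did not overlap, and the log2 fold change was 1.74 (edgeR adjusted p = 0.618). Hps3, a subunit of a complex that forms lysosome-related organelles, was at 7.23 to 8.45 CPM in AAV-GFP and 8.53 to 11.4 CPM in AAV-RBM20. Of the macrophage markers, Itgam had an r of 0.97 with the same mean and Aif1 the lowest, 0.72.

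Erythroid markers, a sign of blood in the tissue, summed to 3.91, 9.18 and 10.4 CPM in AAV-GFP and to 2.62, 4.60 and 27.1 CPM in AAV-RBM20, the last being the library highest for 8 of the 10 sensing genes. Fibro-adipogenic progenitor markers summed to 348, 330 and 632 CPM and to 599, 471 and 740 CPM (in the same order), and endothelial markers to 327, 374 and 157 CPM and to 351, 326 and 248 CPM.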
